A study of Mus musculus with 12 samples.

Results

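The neurexin, neuroligin and contactin-associated genes examined here were Nrxn2, Nrxn3, Nlgn1, Nlgn2, Cntnap1, Cntnap2, Cntnap4, Cntnap5a and Cntn1. Their members were the rows of a count table of mostly non-coding transcripts whose transcript identifier belongs to one of these 9 genes in release M21 of the GENCODE annotation of the mouse genome GRCm38. A row was found for 8 of the 9 genes, which gave 22 of the 48033 transcripts in the table and 8 of its 22103 genes and assembled loci. Cntnap5a, whose only annotated transcript is protein-coding, had no row. None of the 22 rows is a protein-coding transcript, so the values below are counts assigned to non-coding transcripts of these genes. These transcripts share exonic bases with the mRNAs, for example 3448 coding bases of the 3862 in Cntnap4-204. How the counting treated reads of shared bases is not stated, so reads of the mRNAs may be among the counts.

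The libraries were made from ribosomal-RNA-depleted total RNA of the hippocampus and the cerebral cortex of 3 WT mice and 3 mice of the 5 × FAD line, all of the C57BL/6J strain, aged 7 months, which gave 4 groups of 3 libraries. The 5 × FAD mice carry human APP with the Swedish, Florida and London mutations together with a mutant human PS1, both under elements of the mouse Thy1 gene that are active mainly in neurons, and the WT mice were non-transgenic and of the same age. The comparisons ask how these transcripts differ between genotypes within a region, between regions within a genotype, and whether the genotype difference depends on the region. P-values between genotypes measure the spread between 3 mice per group. Between regions and in the interaction, both regions came from the same mice. Those tests treated the libraries as independent, because the labels do not tell which libraries share a mouse. Only for 5 × FAD 3 do chromosome Y counts, given below, link the regions.

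Library totals lay between 3517967 and 5014389 counts, and the members took 0.1085% to 0.1583% of a library. Levels are CPM, counts per 1000000 counts of a library whose size was scaled by the trimmed mean of M-values (TMM), and 3 counts, taken as the smallest detectable amount, stand for 0.648 to 0.855 CPM. Zbtb20, a transcription factor of hippocampal pyramidal cells and the only one of 6 hippocampal markers with a row, summed to 106.9 to 124.6 CPM in WT hippocampus and 25.71 to 35.35 CPM in WT cortex. Xist, a transcript of the silenced X chromosome in females, had 30468 to 46630 counts in 4 libraries, those labelled 5 × FAD 1 and 5 × FAD 2 in both regions, and at most 25 in the other 8. Transcripts of chromosome Y had 0 counts in those 4 libraries and 1074 to 1661 in the other 8. Of the 5 × FAD libraries, number 3 of each region alone had them (1074 in hippocampus, 1276 in cortex). Since both regions came from the same mice, the number 3 libraries of 5 × FAD would be from 1 mouse. The series states that each genotype had 2 females and 1 male, which the 6 WT libraries, all low in Xist, go against. Genotype and Xist cannot be told apart for 5 × FAD 1 and 5 × FAD 2, and with a term for Xist the genotype estimate rests on 5 × FAD 3 alone.

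Neurexins are presynaptic adhesion proteins that reach across the synaptic cleft to neuroligins on the postsynaptic side, and such pairs help to organize synapses and set their properties. Nlgn1 acts mainly at excitatory and Nlgn2 at inhibitory synapses. Contactin-associated proteins (Caspr proteins) are relatives of neurexins. Cntnap1 (Caspr) and contactin 1, a glycolipid-anchored adhesion protein from Cntn1, together form the axonal side of the paranodal junction beside the node of Ranvier, Cntnap2 (Caspr2) gathers potassium channels at the juxtaparanode, and Cntnap4 is found in interneurons. Neurexin genes are known for alternative promoters and very extensive alternative splicing.

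The genes lie on different chromosomes, apart from Nlgn2 and Cntnap1, which share chromosome 11, and most are long. Nrxn3 spans chr12:88722876-90334935 (1612.1 kb), Cntnap2 spans chr6:45059357-47304213 (2244.9 kb), Nlgn1 spans chr3:25426215-26332460 (906.2 kb) and Cntn1 spans chr15:92051165-92341967 (290.8 kb). Cntnap4 lies at chr8:112570043-112882717 (312.7 kb) and Nrxn2 at chr19:6418731-6544169 (125.4 kb), while Nlgn2 at chr11:69823122-69837784 (14.7 kb) and Cntnap1 at chr11:101170523-101190724 (20.2 kb) are short. Of the 9 genes, 7 exceed 100 kb, compared with 11.3% of 22028 annotated protein-coding genes, whose median span is 17.3 kb.

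Of the 22 transcripts, 10 are annotated as retained-intron and 12 as processed transcripts, and the retained-intron transcripts held 90.9% of the 67939 member counts. Among all 31684 rows of protein-coding genes in the table, retained-intron transcripts held 79.5% of the counts. In 9 of the 10, a coding exon runs past its 5′ splice site and the transcript ends inside the intron, 322 to 3309 intronic bases later. The sequences across 7 of these splice sites, and that of Nlgn2-204, are shown because they are where these transcripts depart from the mRNA. Each is taken from the GENCODE M21 transcript, is given 5′ to 3′ on the gene's strand, and has the first 2 intronic bases, the splice donor, in capitals. For Nlgn2-204 the capitals mark the last 2 intronic bases, the splice acceptor, since that transcript begins in the intron.
Nlgn1-204 (ENSMUST00000192774, chr3:26133202-26133281, minus strand): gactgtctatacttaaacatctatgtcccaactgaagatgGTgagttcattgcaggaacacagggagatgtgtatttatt
Nrxn3-204 (ENSMUST00000110138, chr12:88850279-88850348, plus strand): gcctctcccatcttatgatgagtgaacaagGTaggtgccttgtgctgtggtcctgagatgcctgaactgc
Nrxn3-209 (ENSMUST00000167734, chr12:89260482-89260561, plus strand): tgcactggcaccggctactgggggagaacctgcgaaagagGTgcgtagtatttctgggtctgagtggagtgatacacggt
Nrxn2-212 (ENSMUST00000150792, chr19:6481836-6481915, plus strand): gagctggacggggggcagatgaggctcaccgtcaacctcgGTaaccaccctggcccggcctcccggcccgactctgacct
Cntnap4-203 (ENSMUST00000125196, chr8:112785856-112785935, plus strand): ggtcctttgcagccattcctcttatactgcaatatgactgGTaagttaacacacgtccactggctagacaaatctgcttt
Cntnap4-204 (ENSMUST00000125976, chr8:112859155-112859234, plus strand): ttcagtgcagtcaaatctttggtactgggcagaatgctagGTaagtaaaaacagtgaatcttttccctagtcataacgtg
Cntn1-203 (ENSMUST00000141187, chr15:92246103-92246182, plus strand): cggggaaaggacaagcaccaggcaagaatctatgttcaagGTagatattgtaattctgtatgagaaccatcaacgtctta
Nlgn2-204 (ENSMUST00000140477, chr11:69828475-69828554, minus strand): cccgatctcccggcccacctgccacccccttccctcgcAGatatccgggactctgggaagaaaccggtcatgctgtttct
The donor of Nrxn3-204 follows the 30 coding bases shown, before which lies a splice junction. The same 30 coding bases and donor occur in the processed transcript Nrxn3-207, which goes on for 4 intronic bases only before it is spliced again. Nrxn2-212 both begins in an intron, 408 bases before an acceptor, and ends in another.

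The intronic share of the retained-intron transcripts ranged from 8.3% in Cntnap4-204 to 73.1% in Cntn1-203. Nlgn1-204 (chr3:26131670-26331870) has 3 exons and 3327 bases, of which 493 are coding, 1262 untranslated and 1572 intronic (47.2%). Cntnap4-204 holds 3448 coding bases in 21 exons, while Cntn1-203 holds 985 coding and 3309 intronic bases. Several transcripts of 1 gene share sequence, so the authors' counting could split reads between them. Cntnap4-203 and Cntnap4-204 share 1968 exonic bases, which are 74.2% and 51.0% of their lengths. Nrxn3-209 and Nrxn3-204 share 1737 bases, 42.5% and 76.3% of theirs. On the opposite strand, A830092H15Rik shares 721 exonic bases with Nlgn1-204 and Gm37980 shares 439 with Nrxn3-209. The library kit marks strand, but the sources used here do not state whether the counting used it, so reads of these pairs may not be told apart.

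**Figure D1:**
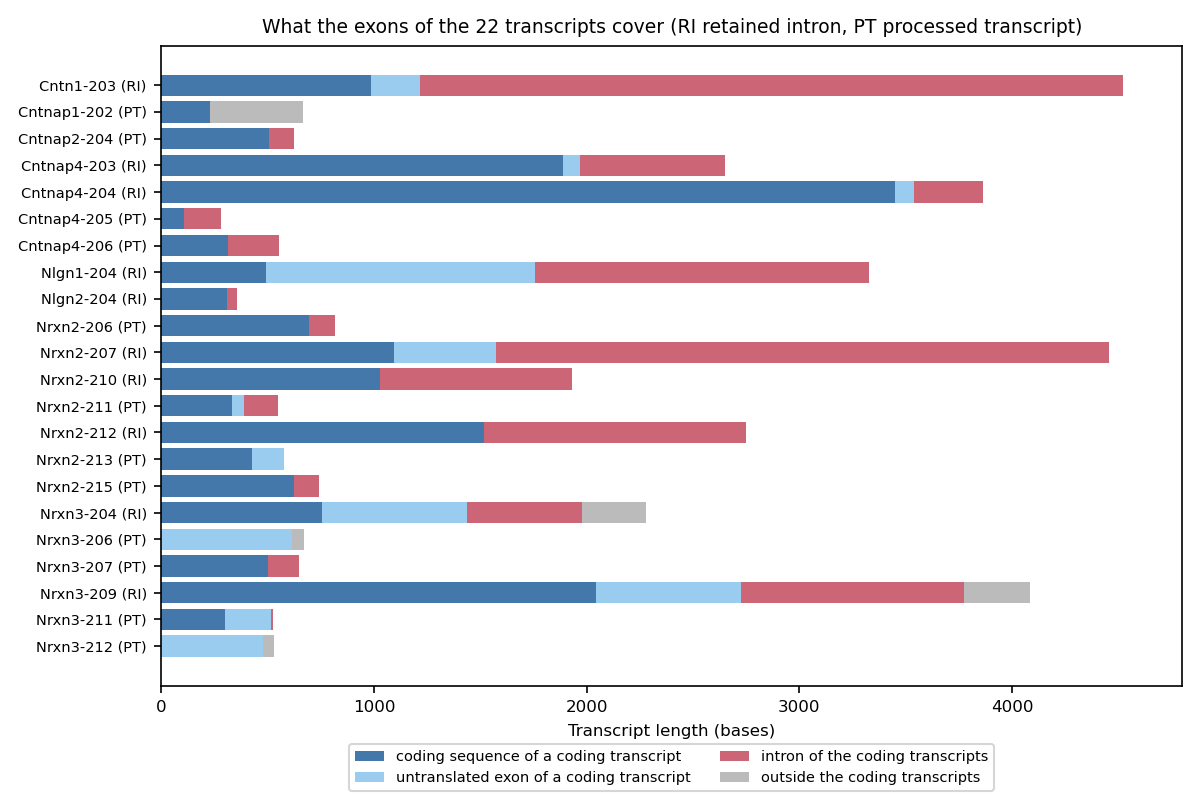
Composition of the 22 member transcripts in bases, split into coding sequence of a coding transcript, untranslated exon, intron of the coding transcripts and sequence outside them. The longest intronic stretches lie in Cntn1-203 (3309 bases) and Nrxn2-207 (2882 bases), both retained-intron transcripts.

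Levels were compared between genes per kilobase of transcript. Over the 12 libraries, Nrxn3-204 stood highest at 129.3 CPM per kb (range 79.4 to 172.6), followed by Nrxn3-207 at 107.1 (76.13 to 128.6) and Nlgn1-204 at 104.1 (85.38 to 126.0). These 3 overlapped one another. Nrxn2-212, the fourth, was at 54.25 CPM per kb (42.49 to 84.49), and its highest library did not reach the lowest of Nlgn1-204, though it exceeded the lowest of both Nrxn3 transcripts. From there down, each transcript overlapped the next in order. Cntn1-203 had 33.25 (5.741 to 68.88), Cntnap4-203 had 21.93 (5.762 to 35.96) and Nlgn2-204 had 6.585 CPM per kb (2.803 to 11.14). Cntnap2-204 and Cntnap1-202 had 0.4698 and 0.4601 CPM per kb. Their highest group means, 0.485 and 0.442 CPM, were below the 0.648 to 0.855 CPM that 3 counts stand for. In 7 of the 22 transcripts, no library had over 9 counts and the filter on low counts kept the transcript out of the tests: Cntnap1-202, Cntnap2-204, Cntnap4-205, Cntnap4-206, Nrxn2-206, Nrxn2-210 and Nrxn2-213, the last of which had exactly 1 count in each of the 12 libraries.

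Among the presynaptic neurexins, Nrxn3 had the most counts. Its main transcript, Nrxn3-204, had 1312, 1203 and 787 counts in WT hippocampus (libraries 1, 2 and 3) and 1500, 1107 and 1080 in 5 × FAD hippocampus. In the cortex its counts were 1639, 1548 and 863 in WT and 1066, 1270 and 1524 in 5 × FAD. The 4 groups overlapped in counts. Summed over its 6 transcripts, Nrxn3 stood at 483 ± 83.4 CPM (SD, n = 3) in WT hippocampus, 501 ± 167 in 5 × FAD hippocampus, 494 ± 72.7 in WT cortex and 477 ± 83.1 in 5 × FAD cortex, a spread of means smaller than the spread between libraries of a group.

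The other Nrxn3 transcripts varied unequally between libraries. Nrxn3-209, named after its values were seen, had 350, 257 and 1239 counts in WT hippocampus and 736, 148 and 280 in 5 × FAD hippocampus. The cortex held 221, 252 and 221 in WT and 250, 263 and 230 in 5 × FAD. Its hippocampal libraries were thus widely spread (SD of log2 CPM 1.25 in WT and 1.20 in 5 × FAD) and its cortical libraries close together (0.13 and 0.23). Nrxn3-211 had 187, 164 and 172 counts in WT hippocampus, 73, 39 and 146 in 5 × FAD hippocampus, 124, 86 and 76 in WT cortex and 84, 43 and 166 in 5 × FAD cortex. In both regions its 5 × FAD 3 library was above 5 × FAD 1 and 5 × FAD 2. Nrxn3-207 stayed between 211 and 378 counts in all 12 libraries.

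Nrxn2, the other neurexin with rows, was carried by a pair of retained-intron transcripts. Nrxn2-212 had 551, 628 and 508 counts in WT hippocampus, 815, 504 and 475 in 5 × FAD hippocampus, 806, 1064 and 426 in WT cortex and 688, 527 and 586 in 5 × FAD cortex. WT cortex contained both the highest and the lowest count, and the groups overlapped. Nrxn2-207, named after its values were seen, ran from 265 to 819 counts, with its highest value in the same library, WT cortex 2, as Nrxn2-212. The gene sums were 208 ± 30.7 CPM in WT hippocampus, 247 ± 46.0 in 5 × FAD hippocampus, 302 ± 107 in WT cortex and 232 ± 7.41 in 5 × FAD cortex (SD, n = 3).

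Of the postsynaptic neuroligins, Nlgn1 was abundant and even. Nlgn1-204, its only row, had 1605, 1740 and 1824 counts in WT hippocampus, 1271, 1470 and 1226 in 5 × FAD hippocampus, 1538, 1894 and 1147 in WT cortex and 1430, 1043 and 1471 in 5 × FAD cortex. This was 381 ± 36.3, 321 ± 20.2, 370 ± 43.2 and 315 ± 27.7 CPM in that order. The SD of log2 CPM within a group lay between 0.090 and 0.17, at percentiles 3.87 to 19.28 of the transcripts tested (median 0.32 to 0.45). Nlgn2-204 was scarce, with 6, 8 and 7 counts in WT hippocampus, 4, 10 and 16 in 5 × FAD hippocampus, 15, 18 and 8 in WT cortex and 6, 9 and 11 in 5 × FAD cortex.

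Cntn1-203, the contactin 1 transcript, was abundant but uneven. It had 279, 1248 and 113 counts in WT hippocampus, 633, 1337 and 314 in 5 × FAD hippocampus, 487, 811 and 134 in WT cortex and 1222, 796 and 344 in 5 × FAD cortex. Library 3 was the lowest of each of the 4 groups. By CPM, the highest library of a group was 10.38, 4.015, 4.634 and 3.47 times the lowest, in that order, and the SD of log2 CPM exceeded that of 84.5% to 95.5% of the transcripts tested. The labels do not tell whether libraries of equal number come from 1 mouse. Only for 5 × FAD 3 do the chromosome Y counts link the regions.

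The Caspr gene Cntnap4 was moderate in sum and uneven between its transcripts. Its summed counts were 462, 422 and 333 in WT hippocampus, 425, 481 and 353 in 5 × FAD hippocampus, 413, 189 and 347 in WT cortex and 495, 449 and 360 in 5 × FAD cortex. Cntnap4-203 made up 29.65% to 85.03% of a library's Cntnap4 counts (median 58.89%) and Cntnap4-204, named after its values were seen, 13.51% to 69.26% (median 39.83%). The longer Cntnap4-204 exceeded Cntnap4-203 in 2 of the 12 libraries, WT hippocampus 1 (320 against 137 counts) and WT cortex 2 (113 against 70 counts). Nrxn2-212 kept 51.8% to 68.05% of the Nrxn2 counts in every library. Nrxn3-204 held 31.19% to 72.59% of the Nrxn3 counts, the lowest share in WT hippocampus 3, where Nrxn3-209 held 49.11%. Cntnap1-202 had at most 4 counts in any library and 0 in 7 of 12, and Cntnap2-204 had at most 3, so no level of either could be compared at this depth.

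**Figure D2:**
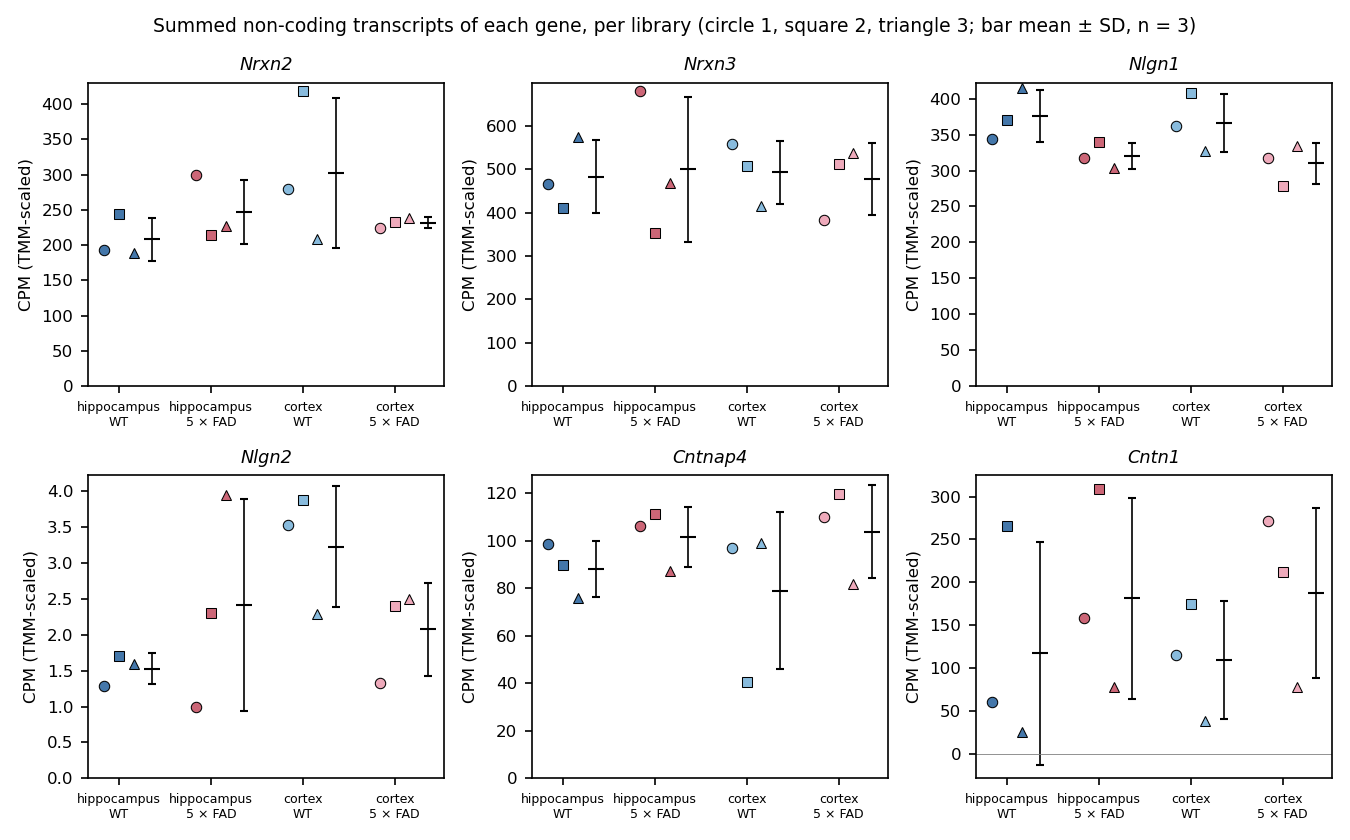
Summed CPM (TMM-scaled) of the non-coding transcripts of each gene, 1 panel per gene, with each library as a point (circle 1, square 2, triangle 3) and the mean ± SD (n = 3) as a bar. Nlgn1 libraries lie close together (278 to 415 CPM), whereas Cntn1 runs from 25.7 to 309 CPM.

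**Figure D3:**
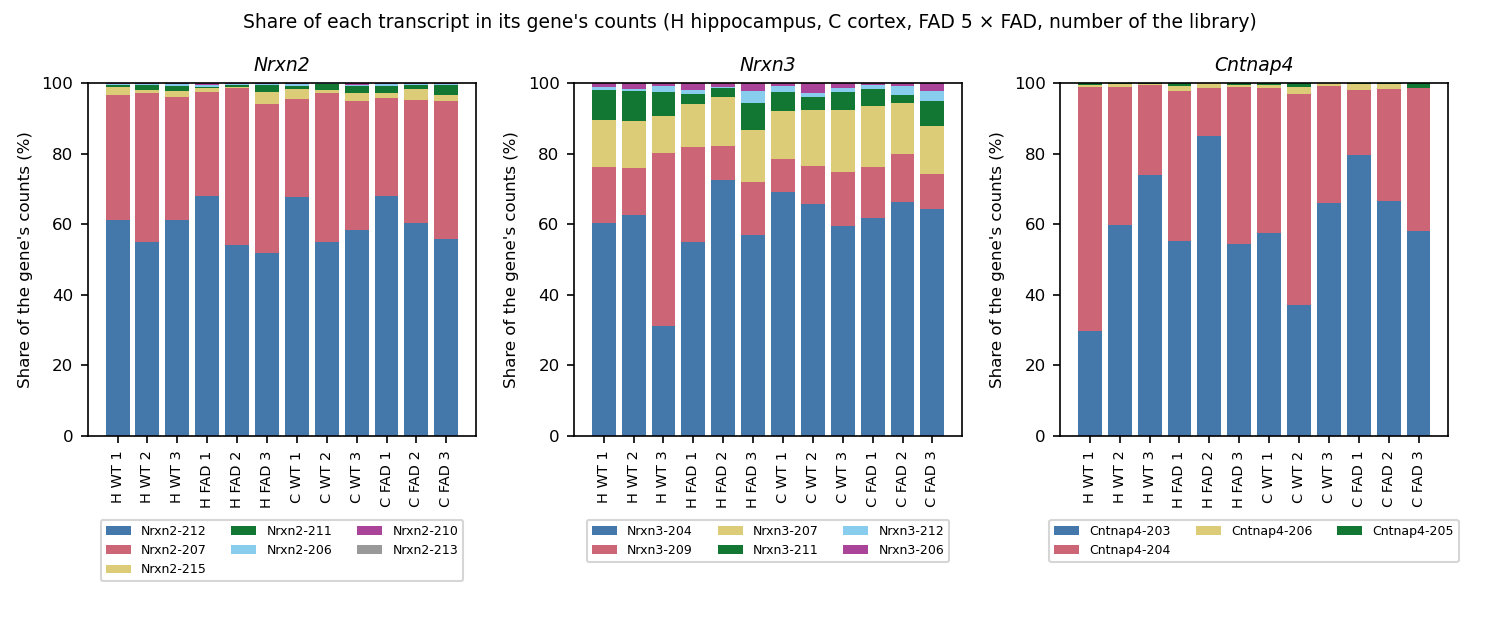
Share of each transcript in its gene's counts, in percent, for Nrxn2, Nrxn3 and Cntnap4 in each of the 12 libraries (H hippocampus, C cortex, FAD 5 × FAD). Nrxn2 keeps a similar composition, Nrxn3-209 reaches 49.11% in 1 library, and Cntnap4-203 ranges from 29.65% to 85.03%.

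The comparison of 5 × FAD with WT asked whether these transcripts differ with the transgenes. No member transcript passed an adjusted p of 0.05 in edgeR's quasi-likelihood test: 0 of 14 tested in the hippocampus, against 0.0183% of the 21894 transcripts tested there, and 0 of 15 in the cortex, against 0.0545% of 21999. None had an unadjusted p under 0.05 in either region (7.58% and 5.34% of all transcripts did), and DESeq2 also called 0 in each. The gene sums gave 0 of 5 in the hippocampus and 0 of 6 in the cortex in both tools, beside 0.0529% and 0.0175% of all gene sums called. None of these gene sums had an unadjusted p under 0.05 in edgeR (8.69% and 6.67% of all). With so few calls over the whole table, a count of 0 says little about the members. In bulk tissue, fewer cells of a type and less RNA per cell cannot be told apart.

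Nlgn1-204 was the one member whose genotypes did not overlap. Its 3 WT hippocampal libraries lay at 347, 376 and 419 CPM, and its 5 × FAD libraries at 316, 343 and 303 CPM. Such separation was found for 1 of 14 members in the hippocampus (15.7% of all transcripts) and 0 of 15 in the cortex (12.1%), shares no higher than the background. Of the gene sums, Nlgn1 alone was separated in the hippocampus (16.5% of all) and none in the cortex (13.1%). The log2 fold change was -0.23 in the hippocampus (SE 0.17, 95% interval -0.64 to 0.17, adjusted p = 0.751 from edgeR) and also -0.23 in the cortex (SE 0.15, -0.60 to 0.14, adjusted p = 0.913). The intervals include decreases of more than that size and small increases. With the term for libraries with Xist, the estimates were -0.32 and -0.13.

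Cntn1-203 had wide intervals. Its log2 fold change was 0.64 in the hippocampus (SE 0.89, 95% interval -1.49 to 2.76) and 0.78 in the cortex (SE 0.64, -0.77 to 2.33), with edgeR adjusted p of 0.876 and 0.913. With the term for libraries with Xist, these estimates became -0.60 and -0.48, so the direction depended on 5 × FAD 1 and 5 × FAD 2. The 5 × FAD 3 library lay at 77.6 CPM in the hippocampus and 79.1 in the cortex, within the range of WT in each region.

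For the neurexins, the estimates in the hippocampus were 0.33 for Nrxn3-204 (95% interval -0.29 to 0.94), 0.18 for Nrxn3-207 (-0.40 to 0.76), -0.85 for Nrxn3-211 (-1.98 to 0.27) and 0.25 for Nrxn2-212 (-0.40 to 0.91). In the cortex they were -0.063 (-0.64 to 0.51), -0.11 (-0.47 to 0.24), -0.027 (-1.11 to 1.05) and -0.34 (-0.95 to 0.27). Nrxn3-211, whose hippocampal WT libraries stayed within 35.4 to 40.4 CPM, had the smallest p of any member transcript in these tests (unadjusted p = 0.115, adjusted p = 0.697, edgeR). Its 5 × FAD libraries were at 18.2, 9.09 and 36.1 CPM, the last of them 5 × FAD 3, which lay within the WT range. With the Xist term its estimate was -0.088 in the hippocampus and 0.71 in the cortex.

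Cntnap4-203, the transcript of the interneuron Caspr gene, had estimates of 0.53 in the hippocampus (95% interval -0.34 to 1.40) and 0.66 in the cortex (-0.63 to 1.96), and the gene sums had 0.23 (-0.20 to 0.66) and 0.39 (-0.42 to 1.21). With the Xist term, these became 0.023 and 0.070 for Cntnap4-203 and 0.011 and 0.049 for the sums. Nlgn2-204 had too few counts for the hippocampal test and gave -0.64 in the cortex (-1.61 to 0.32, adjusted p = 0.913, edgeR). Over the members tested, the median log2 fold change was 0.25 in the hippocampus (all transcripts 0.021) and -0.082 in the cortex (all transcripts 0.0024). The median distance from an estimate to the end of its unadjusted interval was 1.07 and 0.964, and the adjusted threshold is stricter. Changes of 2-fold and more could thus have been missed.

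Cell type markers were read from the same table of mostly non-coding transcripts. On these rows, summed oligodendrocyte markers, of interest beside the paranodal genes, were higher in the 5 × FAD libraries. The 5 of 6 listed markers with rows (Mog had none) summed to 348.5 to 439.1 CPM in WT and 505.9 to 592.4 CPM in 5 × FAD hippocampus, and to 299.7 to 469.1 and 539.4 to 612.6 CPM in the cortex. These sums did not overlap between genotypes in either region, but the median log2 fold change of the 5 genes was -0.084 in the hippocampus and 0.54 in the cortex, and edgeR called 0 of them (1 and 2 with an unadjusted p under 0.05). The neuron markers (5 of 6 with rows, Tubb3 had none) summed to 1196 to 1290 CPM in WT and 922.9 to 1110 CPM in 5 × FAD hippocampus, and overlapped in the cortex (1233 to 1728 and 1065 to 1464 CPM). Astrocyte markers (5 of 6, Aqp4 had none) lay at 1426 to 1545 and 529.7 to 1200 CPM in the hippocampus and overlapped in the cortex (960.4 to 1582 and 966.6 to 1534 CPM). For microglia only 2 of 7 markers had rows, without Cx3cr1, P2ry12, Csf1r, C1qa and C1qb, and their sums were 28.74 to 40.72 and 45.45 to 201 CPM in the hippocampus and 45.99 to 59.49 and 25.01 to 241.3 CPM in the cortex. Endothelial markers (2 of 4) summed to 16.38 to 19.89 and 10.98 to 16.63 CPM in the hippocampus and 15.06 to 23.92 and 18.42 to 29.56 CPM in the cortex. Interneuron markers, of interest beside Cntnap4, had 3 of 5 with rows, without Pvalb and Sst, and ran from 30.45 to 1362 and from 24.25 to 2397 CPM in the hippocampus and from 40.28 to 795.6 and from 39.29 to 1567 CPM in the cortex. The part of these cell types in the member values was not tested.

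**Figure D4:**
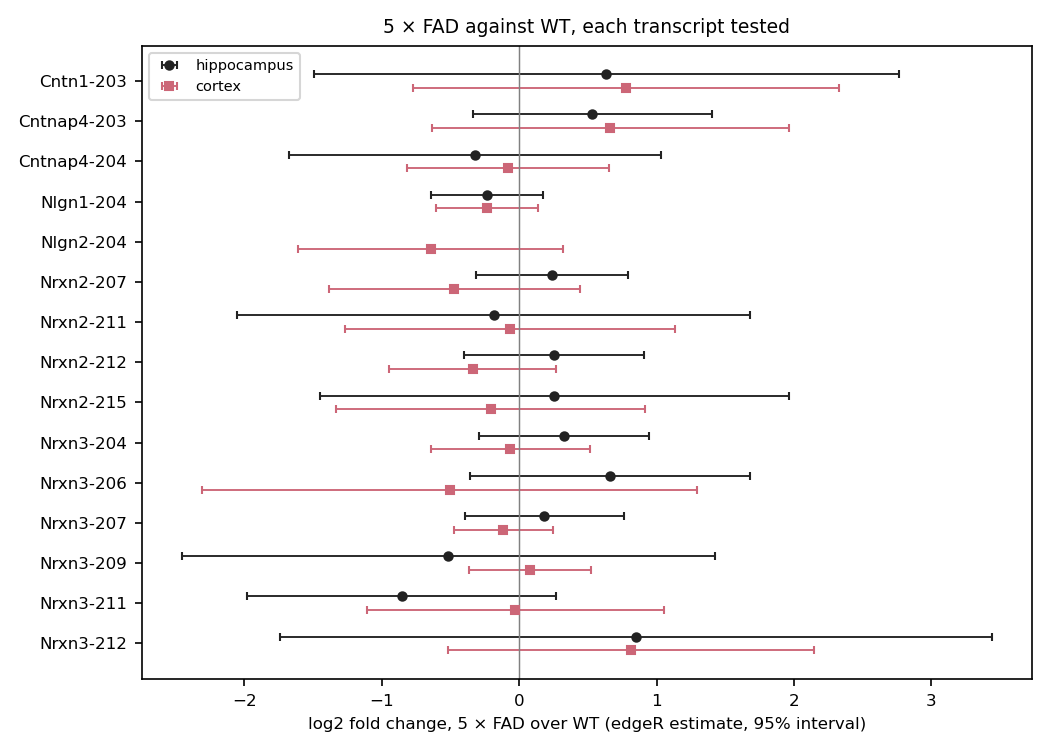
Log2 fold change of 5 × FAD over WT for each member transcript tested, in the hippocampus and the cortex, with the edgeR estimate as a point and its 95% interval as a line. Every interval includes 0, and Nlgn2-204 has no hippocampal test.

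Between regions, WT hippocampus and WT cortex differed most over the table as a whole. There, edgeR called 0.986% of 22007 transcripts (217, and 7 to 63 when 1 library was left out). Of the 15 member transcripts tested, 0 passed the adjusted p in edgeR or DESeq2. At so low a share over all transcripts, this count says little about the members. An unadjusted p under 0.05 was found for 3 of the 15 (12.8% of all transcripts), and the same 3 were those whose libraries did not overlap between regions (20.6% of all transcripts). Nlgn2-204 lay at 1.30, 1.73 and 1.61 CPM in WT hippocampus and 3.60, 3.93 and 2.28 CPM in WT cortex, a log2 fold change of -1.10 (SE 0.35, 95% interval -1.93 to -0.26, adjusted p = 0.266, edgeR). It rests on 6 to 18 counts per library.

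A pair of Nrxn3 transcripts had libraries that did not overlap between the WT regions, in opposite directions. Nrxn3-211 was at 40.4, 35.4 and 39.5 CPM in the hippocampus and 29.7, 18.8 and 21.7 in the cortex (log2 fold change 0.70, SE 0.21, 95% interval 0.19 to 1.21, adjusted p = 0.248, edgeR). Nrxn3-207 was at 62.5, 56.16 and 60.45 CPM in the hippocampus and 78.2, 82.5 and 73.2 in the cortex (log2 fold change -0.40, SE 0.13, -0.72 to -0.084, adjusted p = 0.277, edgeR). Neither passed the threshold. Nrxn3-209 had the highest estimate, 1.27, with an interval from -0.23 to 2.77. 1 of its WT hippocampal libraries lay at 285 CPM and the others at 75.7 and 55.5, and without WT hippocampus 3 it was 0.19. The Nrxn3 sum differed by -0.047 (-0.46 to 0.37).

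Nrxn2-212 was lower in WT hippocampus by estimate (-0.57, 95% interval -1.17 to 0.016, adjusted p = 0.404, edgeR), and Nlgn1-204 showed 0.025 (-0.32 to 0.37). Among gene sums, 0 of 6 passed the adjusted p, beside 3.49% of all 11429, and Nlgn2 alone had an unadjusted p under 0.05 (17.3% of all), with libraries that did not overlap (24.9% of all). DESeq2 called 0 gene sums here too. Median log2 fold changes were -0.45 over the 15 member transcripts and -0.014 over all transcripts. Over the 6 member gene sums the median was -0.013, beside -0.021 over all gene sums.

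In the 5 × FAD mice, 0 of 15 member transcripts passed the adjusted p in edgeR or DESeq2 (0.0182% of all transcripts in edgeR), 0 had an unadjusted p under 0.05 (9.38% of all) and 0 had regions that did not overlap (17% of all). None of the 6 gene sums was called in either tool, beside 0.193% of all, had an unadjusted p under 0.05 (12.6%) or had regions that did not overlap (19.2%). The estimates were 0.21 for Nlgn2-204 (95% interval -1.17 to 1.58), -0.12 for Nrxn3-211 (-1.58 to 1.33), -0.10 for Nrxn3-207 (-0.70 to 0.49), 0.014 for Nrxn2-212 (-0.64 to 0.66) and 0.026 for Nlgn1-204 (-0.40 to 0.45).

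Whether the genotype difference depended on the region was tested as an interaction over all 12 libraries. It was called for 0 of 15 transcripts (0.00812% of 24632) and 0 of 6 gene sums (0% of 12104) in edgeR, with 0 members at an unadjusted p under 0.05 (6.89% of all transcripts and 7.01% of all gene sums) and 0 calls in DESeq2. The largest estimates belonged to Nlgn2-204 (1.28, 95% interval -0.26 to 2.82, adjusted p = 0.766) and Nrxn3-206 (1.15, -0.90 to 3.20), a transcript named here after its values were seen. The Nrxn2 sum gave 0.63 (SE 0.33, -0.10 to 1.35, adjusted p = 0.721), with a higher 5 × FAD mean in the hippocampus and a lower one in the cortex. For Nlgn1-204 the estimate was -0.014 (-0.47 to 0.44).

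**Figure D5:**
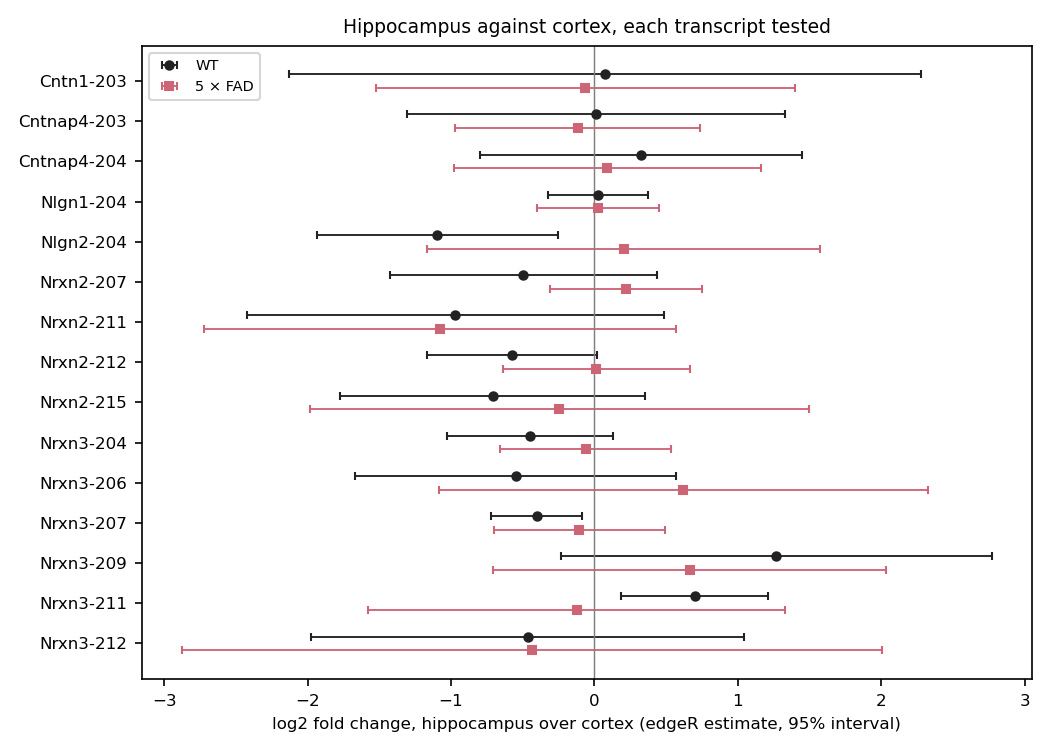
Log2 fold change of hippocampus over cortex for each member transcript tested, in WT and in 5 × FAD mice, with the edgeR estimate as a point and its 95% interval as a line. In WT, the intervals of Nlgn2-204, Nrxn3-207 and Nrxn3-211 exclude 0 before adjustment, and none does in 5 × FAD.

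The surrounding pathway was followed in other genes, under 100 names in 4 lists, by their rows in the same table of mostly non-coding transcripts. The lists held 11 relatives of these families, 42 synaptic partners and organizers, 27 intracellular scaffolds and 20 partners at the node and paranode. In both genotype comparisons and in the interaction, edgeR called 0 of them, among 208, 211 and 225 transcripts tested, of which 23, 13 and 14 had an unadjusted p under 0.05 (7.58%, 5.34% and 6.89% of all transcripts did). As gene sums, 60, 60 and 64 were tested, 0 were called and 6, 5 and 3 had an unadjusted p under 0.05 (8.69%, 6.67% and 7.01% of all gene sums). Between regions in 5 × FAD mice, edgeR called 0 of 210 transcripts (33 with an unadjusted p under 0.05, beside 9.38% of all) and 0 of 58 gene sums (9, beside 12.6% of all).

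Between the WT regions, 5 of the 62 gene sums tested were called by edgeR, 1 higher and 4 lower in the hippocampus, beside 3.49% of all gene sums. An unadjusted p under 0.05 was found for 22 of these 62 (17.3% of all) and for 49 of 214 transcripts (12.8% of all). Ptprd, a presynaptic receptor phosphatase that binds several postsynaptic organizers, had 1816, 1856 and 1649 counts in the hippocampus and 2707, 3085 and 2538 in the cortex (log2 fold change -0.83, adjusted p = 0.0129). Its transcript ENSMUST00000156656 was the only transcript of the lists called, of 214 tested (-1.17, adjusted p = 0.0289). Cntn4, a relative of contactin 1, had 73, 65 and 40 counts in the hippocampus and 151, 161 and 99 in the cortex (-1.37, adjusted p = 0.0298).

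Adgrl2, a latrophilin at synapses, had 246, 225 and 240 counts in WT hippocampus and 365, 399 and 317 in WT cortex (-0.78, adjusted p = 0.0243). The scaffold gene Dlgap3 had 14, 15 and 16 against 41, 42 and 26 counts (-1.42, adjusted p = 0.0330). Ntng1, a netrin-G adhesion protein of axons, was the one that was higher in WT hippocampus, with 294, 378 and 293 counts against 149, 185 and 126 (0.90, adjusted p = 0.0248). In 5 × FAD mice Ntng1 overlapped between regions, at 42.0 to 45.9 CPM in the hippocampus and 32.4 to 81.9 CPM in the cortex. Adgrl2, Cntn4, Dlgap3 and Ptprd were lower in 5 × FAD hippocampus than in 5 × FAD cortex without overlap. The libraries of the WT regions did not overlap for any of these 5 genes, which goes with their choice by adjusted p. Of all gene sums, 24.9% did not overlap. Adgrl2, Cntn4, Dlgap3 and Ntng1 fell short of the adjusted threshold whenever 1 of the 6 libraries was left out. The Ptprd sum passed in 3 of 6 such fits and its transcript ENSMUST00000156656 in 0 of 6. The direction of all 5 held in each of these fits, which adds no support, since libraries that do not overlap fix it.

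The genes whose summed levels followed the 3 most abundant members most closely over the 12 libraries were given by Pearson's correlation of log2 CPM among 10221 genes. For Nrxn3 these were Vipr2 (r = 0.875) and Pde4dip (0.857), for Nlgn1 Dnajc1 (0.931) and Tmem67 (0.846), and for Nrxn2 Lhpp (0.855) and Ppcs (0.789). These are the highest of many correlations over libraries that share groups and depth, and are given as a description.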

How the data were processed

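Strand-specific, ribosomal-RNA-depleted libraries of 12 samples were sequenced by the authors as paired ends. The submitters' processing notes name Trimmomatic 0.36 and edgeR. The counting program, genome build and annotation of the table are not given in the sources used here. The deposited values are raw counts per transcript, with 0 sample columns left unused. Transcript identifiers were matched to GENCODE M21 (GRCm38), and rows were also summed per gene. Each comparison used edgeR 4.0.16 in R 4.3.3 (filterByExpr, TMM, quasi-likelihood test, Benjamini-Hochberg adjustment over all features tested, threshold 0.05) on the groups compared, transcripts and gene sums apart, and all 12 libraries for the interaction. Intervals are 95% and two-sided. The scripts were tested on simulated data. Alternatives included DESeq2 1.42.0, other scaling and filters, a replicate block, a term for libraries with at least 1000 Xist counts and leaving out each library. The sequence at 1 further splice site is not reported here.

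The members and lists were chosen with earlier results of these data known. The text names all gene sums, the most abundant transcript of each gene, called members, up to 4 transcripts with the smallest unadjusted p under 0.05 per comparison, and called genes of the lists.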

Additional observations from a re-analysis of the deposited data

How the results depend on the processing

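In all alternative counts of member calls, 72 of them leaving out a library and 74 others, 0 members passed the adjusted p, and the smallest of 1538 adjusted p was 0.135. The counts over all transcripts differed by over 1.5 times between tools, with 127, 102, 743, 366 and 105 calls in DESeq2 against 4, 12, 217, 4 and 2 in edgeR (genotype in hippocampus and in cortex, regions in WT and in 5 × FAD, interaction), and 83, 53, 761, 336 and 19 gene sums against 6, 2, 399, 22 and 0. Without 5 × FAD hippocampus 3, edgeR called 39 transcripts and 34 gene sums in the hippocampal genotype comparison. Between WT regions, leaving out a library gave 7 to 63 transcripts and 116 to 300 gene sums. There, 71 transcripts were called with no filter on low counts and 355 with at least 10 counts in every library. Between 5 × FAD regions, the 12-library fit called 160 transcripts and 262 gene sums. The Xist term gave 22 transcripts and 21 gene sums in the hippocampal genotype comparison.

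The replicate number was not used as a pairing. Deviations of same-numbered hippocampal and cortical libraries correlated at 0.006 to 0.132 over transcripts and -0.036 to 0.261 over gene sums. The highest of each, 0.132 and 0.261, belonged to 5 × FAD 3. Differently numbered 5 × FAD pairs that held 5 × FAD 3 lay at -0.106 to -0.034 over transcripts and -0.177 to -0.108 over gene sums. Same-numbered WT and 5 × FAD libraries correlated at -0.039 to 0.009 over transcripts and -0.073 to 0.009 over gene sums. With the replicate block, 0 members were called in every comparison, and the calls between WT regions went from 217 to 0 transcripts and from 399 to 5 gene sums. Adgrl2, Cntn4, Dlgap3, Ntng1 and Ptprd were not called with the block (adjusted p 0.0928 to 0.153, edgeR), and Adgrl2 and Ntng1 also not in the 12-library fit.

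With the Xist term, the sign turned to -0.60 for Cntn1-203, -0.072 for Nrxn2-212 and -0.023 for the Nrxn3 sum between genotypes in the hippocampus, to -0.48 for Cntn1-203, -0.11 for Nrxn3-209, 0.71 for Nrxn3-211, 0.11 for Nrxn3-204, 0.042 for Cntnap4-204 and 0.12 for the Nrxn3 sum between genotypes in the cortex, and to -0.17 for the Nrxn3 sum in the interaction. With scaling by library size only, the sign turned to -0.014 for Cntn1-203, -0.046 for Cntnap4-203 and -0.0385 for Nlgn1-204 between WT regions, and to 0.065 for Nlgn1-204 in the interaction. With the replicate block, the sign turned to -0.32 for Cntn1-203 between WT regions, to -0.034 for Nrxn2-212 between 5 × FAD regions and to 0.20 for Cntn1-203 in the interaction. With a filter of at least 10 counts in every library, the sign turned to 0.014 for Nlgn1-204 in the interaction.

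Leaving out 1 library at a time also turned the sign of member estimates that did not pass the test. For 5 × FAD against WT in the hippocampus these ranges were -1.40 to 0.56 for Nrxn3-209, -0.056 to 0.39 for Nrxn2-212, -0.66 to 0.27 for Cntnap4-204 and -0.21 to 0.27 for the Nrxn3 sum. For 5 × FAD against WT in the cortex these ranges were -0.069 to 0.16 for Nrxn3-209, -0.61 to 0.28 for Nrxn3-211, -0.69 to 0.050 for Nrxn2-207, -0.24 to 0.084 for Nrxn3-204, -0.28 to 0.13 for Cntnap4-204 and -0.16 to 0.079 for the Nrxn3 sum. Between WT regions these ranges were -1.36 to 0.59 for Cntn1-203, -0.41 to 0.37 for Cntnap4-203, -0.72 to 0.026 for Nrxn2-207, -0.26 to 0.67 for Cntnap4-204, -0.046 to 0.11 for Nlgn1-204, -0.18 to 0.35 for the Cntnap4 sum and -0.20 to 0.069 for the Nrxn3 sum. Between 5 × FAD regions these ranges were -0.29 to 0.077 for Nrxn3-207, -0.69 to 0.30 for Cntn1-203, -0.21 to 1.07 for Nrxn3-209, -0.33 to 0.57 for Nlgn2-204, -0.75 to 0.47 for Nrxn3-211, -0.46 to 0.081 for Cntnap4-203, -0.25 to 0.038 for Nrxn3-204, -0.30 to 0.15 for Nrxn2-212, -0.19 to 0.44 for Cntnap4-204, -0.043 to 0.088 for Nlgn1-204, -0.18 to 0.080 for the Cntnap4 sum, -0.072 to 0.18 for the Nrxn2 sum and -0.22 to 0.26 for the Nrxn3 sum. For the interaction these ranges were -0.79 to 1.29 for Cntn1-203, -1.48 to 0.46 for Nrxn3-209, -0.49 to 0.27 for Cntnap4-203, -0.59 to 0.33 for Cntnap4-204, -0.10 to 0.065 for Nlgn1-204, -0.38 to 0.15 for the Cntnap4 sum and -0.18 to 0.30 for the Nrxn3 sum. Depth limits Nlgn2-204, with at most 18 counts in a library, and Cntnap1 and Cntnap2 entered only the tests with no filter on low counts.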
